A study of Rattus norvegicus with 16 samples.

Results

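The genes described here encode the protein shell of the mitochondrial ribosome and the core enzymes that copy and transcribe mitochondrial DNA. They were taken by name: every symbol that starts with Mrpl or Mrps followed by a number, plus Polg, Polg2, Tfam, Tfb1m, Tfb2m and Polrmt. This gave 76 of the 22517 gene symbols listed, of which 42 are Mrpl symbols, 28 are Mrps symbols and 6 are the named DNA and transcription genes. Their RNA was measured by sequencing in liver and epididymal fat of 8 obese male ZDF/GmiCrl-fa/fa rats, a strain that lacks a working leptin receptor and develops diabetes. LA rats ate Purina 5008 to which R-α-lipoic acid, abbreviated LA, had been added, a dithiol that serves several mitochondrial enzyme complexes as a bound cofactor, and pair-fed (PF) rats ate Purina 5008 without it. The feeds were given for 2 weeks, ending when the rats were 11 weeks old. The groups were LA liver, PF liver, LA fat and PF fat, with 4 libraries each and 16 in all. Every rat carried the same fa/fa genotype and no lean rats were included, and which liver and which fat library share an animal is not in the labels.

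Mitochondria keep a small circular genome that encodes a few subunits of the respiratory chain together with the ribosomal and transfer RNAs needed to translate them. All proteins of the mitochondrial ribosome, and all enzymes that replicate and transcribe this genome, are encoded in the nucleus and imported. DNA polymerase gamma, the replicative polymerase of mitochondria, joins a catalytic subunit (Polg) with a pair of accessory subunits (Polg2) that hold it on the template. Polrmt is the mitochondrial RNA polymerase, Tfam bends and packages the DNA and recruits the polymerase to promoters, Tfb2m helps open them, and Tfb1m methylates the RNA of the small ribosomal subunit. Liver and fat both depend on this machinery, liver for its high oxidative and biosynthetic load and white fat for lipid synthesis and adipocyte differentiation.

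The files give FPKM, fragment numbers corrected for the length of the transcript and the size of the library, so levels of different genes are per length. Total read numbers are unknown. The value that 1 fragment takes, read from the steps between low values and set relative to PF liver replicate 1, was 0.722 to 0.895 in LA liver, 0.853 to 1 in PF liver, 0.740 to 0.865 in LA fat and 0.774 to 0.959 in PF fat, where a smaller value means a deeper library. Between 9522 and 9738 genes reached 1 FPKM in a liver library and between 11276 and 11480 in a fat library. Adipocyte markers summed to 66.8 to 76.2 FPKM in LA liver and 60.7 to 73.5 FPKM in PF liver, against 36729 to 43128 FPKM in LA fat and 34700 to 40018 FPKM in PF fat, with Adipoq and Lep listed at 0 in liver. The hepatocyte markers Alb and Tf are listed at 0 in every liver library, and the other hepatocyte markers were high there, with Fgg between 1629 and 2853 FPKM. In fat the hepatocyte markers summed to 318 to 1148 FPKM under LA and 729 to 1317 FPKM under PF, sums that cannot be set against those in liver, since Alb (51.2 to 500.1 FPKM in LA and 245 to 581 FPKM in PF fat) and Tf (229 to 344 and 279 to 387 FPKM) make up much of them. In such tissue libraries, fewer cells of a type and less RNA per cell cannot be told apart.

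Of the 76 genes, Mrpl40 and Mrps21l are listed at 0 in all 16 libraries, and the other 74 passed the filter of 1 FPKM in at least 4 libraries in every comparison. A listed 0 may be a failed estimate, as for Alb in liver. The mean level over all libraries ran from 3.81 FPKM for Polrmt to 79.2 FPKM for Mrpl27, with a median of 27.0 FPKM over the 74 genes. Ribosomal protein genes lay well above the genes of DNA replication and transcription: the medians were 29.8 FPKM over 41 Mrpl genes, 27.7 FPKM over 27 Mrps genes and 9.74 FPKM over the 6 others. After Mrpl27 the highest levels were those of Mrpl54 (79.1 FPKM), Mrpl17 (76.3 FPKM), Mrps16 (67.9 FPKM) and Mrps7 (64.0 FPKM). Mrps27, Mrps28, Tfb1m and Mrpl47 followed Polrmt at the low end, with 5.30, 5.34, 6.29 and 6.46 FPKM. Within groups the libraries agreed closely in liver, where the median coefficient of variation over the 74 genes was 8.55% in LA and 8.74% in PF rats. It was 15.1% in LA fat and 14.7% in PF fat.

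The order of the genes by level was much alike in LA and PF rats and less so between liver and fat. Across the 74 genes, log2 group means of LA and PF liver had a Pearson correlation of 0.983, and those of LA and PF fat one of 0.996. Between liver and fat the correlation was 0.859 under LA and 0.800 under PF. Genes are not independent replicates, and libraries of a tissue may share its base composition, which was not measured, so these values describe the profile only.

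Promoter sequences are shown for the 4 genes on which the comparisons below turn: Polg2 and Mrps18b, which differed between the feeds in liver, and Polg and Mrps7, which like Polg2 differed between the tissues. They are the 250 bases before and 50 after the annotated start, from RefSeq on assembly GRCr8, 5′ to 3′ on the gene's own strand, at chr10:92222677-92222976 (minus) for Polg2, chr1:142808789-142809088 (minus) for Polg, chr20:2842756-2843055 (plus) for Mrps18b and chr10:101342392-101342691 (plus) for Mrps7. Capitals mark matches to the motifs searched on both strands: the 10-base consensus of NRF1, CCGGAAG of ETS factors such as GABP, AAGATGGCG of YY1 and the E-box CACGTG.
Polg2: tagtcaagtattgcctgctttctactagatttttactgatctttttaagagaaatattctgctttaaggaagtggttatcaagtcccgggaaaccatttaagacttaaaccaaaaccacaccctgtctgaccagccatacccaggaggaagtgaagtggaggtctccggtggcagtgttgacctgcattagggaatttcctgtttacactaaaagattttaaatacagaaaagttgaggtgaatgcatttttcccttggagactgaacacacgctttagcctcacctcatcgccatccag
Polg: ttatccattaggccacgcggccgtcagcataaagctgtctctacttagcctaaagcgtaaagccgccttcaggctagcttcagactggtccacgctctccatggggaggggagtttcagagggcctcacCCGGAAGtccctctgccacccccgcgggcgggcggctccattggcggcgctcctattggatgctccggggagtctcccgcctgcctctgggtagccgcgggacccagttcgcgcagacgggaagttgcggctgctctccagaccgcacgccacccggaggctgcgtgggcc
Mrps18b: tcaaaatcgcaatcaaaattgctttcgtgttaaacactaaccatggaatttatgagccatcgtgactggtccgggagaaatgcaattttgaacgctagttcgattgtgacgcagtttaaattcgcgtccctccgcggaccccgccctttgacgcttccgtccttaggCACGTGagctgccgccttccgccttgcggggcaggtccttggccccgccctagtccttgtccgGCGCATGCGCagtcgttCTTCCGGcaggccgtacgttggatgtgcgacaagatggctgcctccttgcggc
Mrps7: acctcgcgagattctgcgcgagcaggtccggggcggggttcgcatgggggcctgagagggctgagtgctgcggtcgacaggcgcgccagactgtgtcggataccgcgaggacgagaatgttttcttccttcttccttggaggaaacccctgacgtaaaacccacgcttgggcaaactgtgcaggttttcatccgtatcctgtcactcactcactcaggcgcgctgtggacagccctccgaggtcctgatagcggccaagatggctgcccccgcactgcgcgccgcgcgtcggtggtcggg
The Mrps18b promoter held an NRF1 match 20 to 11 bases before the start, an ETS match across the start on the opposite strand, and an E-box from base -83 to base -78. The Polg promoter held an ETS match from base -121 to base -115, and neither the Polg2 nor the Mrps7 window held any of the 4 motifs. The table has a promoter for 62 of the 76 genes. Of these, 33.9% held the ETS motif, against 16.7% of 7528 genes expressed at 1 FPKM or more in 4 libraries and 9.22% of all 27457 promoters. For YY1 the shares were 14.5%, 3.89% and 1.93% in the same order, for NRF1 12.9%, 9.94% and 4.71%, and for the E-box 11.3%, 9.37% and 6.65%. A match in these windows describes the letters only, and no binding was measured.

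The liver comparison asked which of these genes differed between LA and PF rats. Most of the machinery gave no call: 1 gene was higher, 1 was lower and 72 of 74 did not pass an adjusted p of 0.05. Over all 9710 genes tested in liver, 4.48% passed, 2.27% higher and 2.21% lower, so the share of these genes that passed was near that of all genes. Their median log2 fold change was -0.0046, against -0.0020 over all genes tested. Polg2, the accessory subunit of DNA polymerase gamma, was the gene that fell, and Mrps18b, a protein of the small ribosomal subunit, was the gene that rose.

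Polg2 had 9.82, 8.68, 10.6 and 9.90 FPKM in LA livers, against 17.8, 19.8, 20.4 and 17.3 FPKM in PF livers. Every LA liver lay below every PF liver, and the gap between the groups was wider than the range within either. The means were 9.76 ± 0.808 FPKM in LA and 18.8 ± 1.48 FPKM in PF livers (SD, n = 4 each). On the log2 scale the fold change was -0.88 with an SE of 0.083, and the adjusted p was 0.00045 (limma with Benjamini-Hochberg adjustment over all genes tested). The adjusted p was 0.00018 to 0.0034 over 15 alternative fits, and the fall was under 2-fold, so a 2-fold threshold would end the call. Polg, the catalytic subunit of the same enzyme, had 16.2 ± 1.71 FPKM in LA and 15.8 ± 1.52 FPKM in PF livers (log2 fold change 0.03, SE 0.096, adjusted p = 0.90), with groups that overlapped. The ratio of Polg2 to Polg FPKM within a library was 0.585, 0.482, 0.762 and 0.621 in LA livers, against 1.06, 1.17, 1.49 and 1.09 in PF livers. In FPKM, Polg2 was thus below Polg in each LA liver and above it in each PF liver. The annotation behind the FPKM is not known, and Polg overlaps another gene, as given below. The ratios therefore describe a difference between the feeds and cannot settle which transcript was more abundant.

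The 4 genes of mitochondrial transcription did not pass in liver. Tfam, the packaging and promoter factor, had 27.2 ± 1.60 FPKM in LA and 25.6 ± 1.12 FPKM in PF livers (log2 fold change 0.09, adjusted p = 0.54). Tfb2m, the promoter-opening factor, had 16.5 ± 1.36 and 15.95 ± 0.869 FPKM in the same order, and Tfb1m, the ribosomal RNA methyltransferase, 5.33 ± 0.814 and 5.59 ± 0.185 FPKM. Polrmt, the RNA polymerase, had 5.26, 4.78, 4.35 and 5.45 FPKM in LA livers, against 4.41, 4.62, 3.72 and 4.19 FPKM in PF livers, 2 groups that overlapped (log2 fold change 0.19, SE 0.090, adjusted p = 0.28). By level the genes ran Tfam, Tfb2m, Polg, Polg2, Tfb1m and Polrmt in LA livers, and Tfam, Polg2, Tfb2m, Polg, Tfb1m and Polrmt in PF livers. Tfb2m and Polg lay within their spread of each other in both, as did Tfb1m and Polrmt in LA livers. Polg2 was therefore the gene whose place in the order differed between the feeds.

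**Figure D1:**
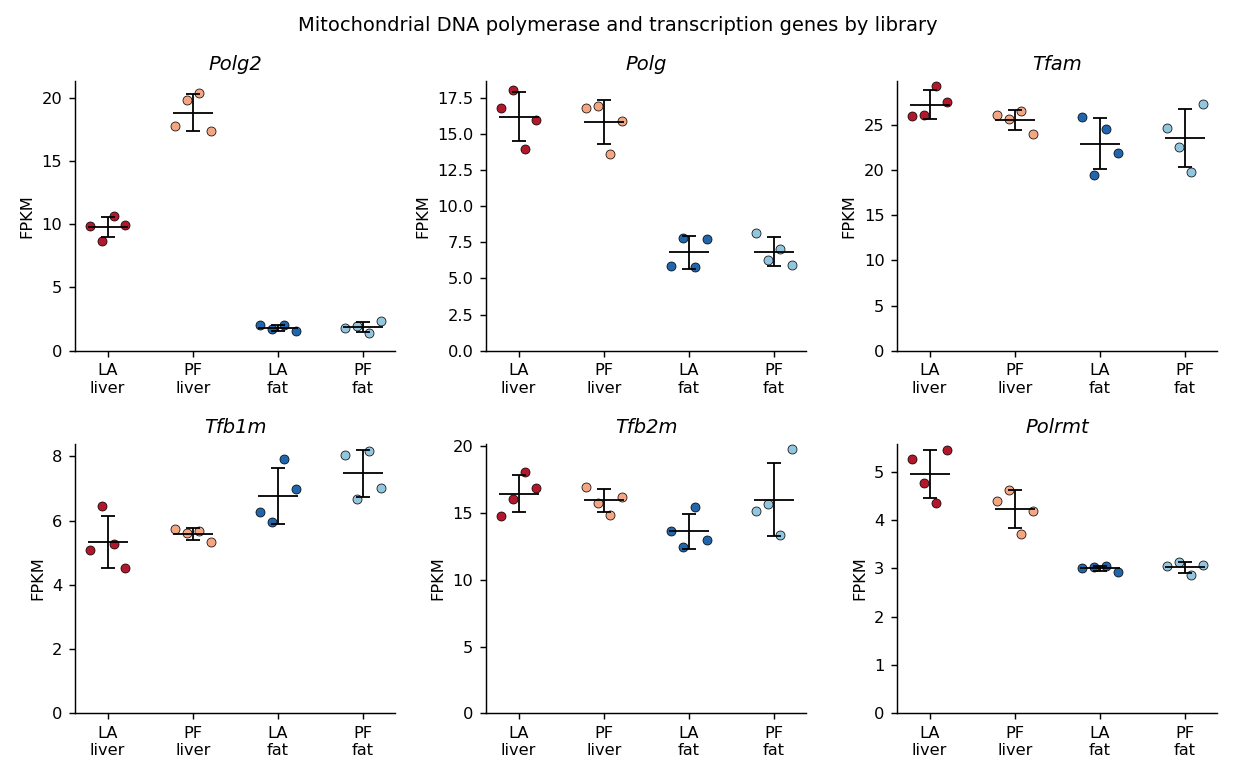
FPKM of the 6 genes of mitochondrial DNA replication and transcription in each library, with points for the 4 libraries of a group and bars for the mean and SD; each axis starts at 0. Polg2 lies between 8.68 and 10.6 FPKM in LA livers, below all PF livers, and the LA and PF points of the other 5 genes overlap in liver.

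Mrps18b had 49.7, 58.7, 50.7 and 56.4 FPKM in LA livers, against 41.6, 41.2, 40.6 and 37.8 FPKM in PF livers. The groups did not overlap, and the lowest LA liver stood well above the highest PF liver. The means were 53.9 ± 4.37 FPKM in LA and 40.3 ± 1.71 FPKM in PF livers. The log2 fold change was 0.41, its SE was 0.075 and the adjusted p was 0.014. The call was lost when all 16 libraries shared 1 model (adjusted p = 0.096) and held under the other 14 alternatives. Mammals have 3 proteins related to the same bacterial ribosomal protein, Mrps18b and Mrps18c in the small subunit and Mrps18a in the large subunit despite its name. The others did not pass: Mrps18a had 39.2 ± 2.91 FPKM in LA and 40.0 ± 4.32 FPKM in PF livers (log2 fold change -0.03), and Mrps18c had 35.5 ± 3.14 FPKM in LA and 39.7 ± 3.85 FPKM in PF livers (log2 fold change -0.16). The ratio of Mrps18b to Mrps18c within a library was 1.59, 1.64, 1.31 and 1.54 in LA livers, against 1.03, 0.976, 0.963 and 1.11 in PF livers, again without overlap.

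Among the other ribosomal protein genes 0 passed in liver. Groups without overlap were found for Mrps18b and Mrps10 on the higher side and Polg2 on the lower side, 3 of 74 genes against 12.3% of all genes tested (5.89% higher and 6.39% lower). An unadjusted p under 0.05 was reached by 7 of the 74 genes, against 20.1% of all genes. Mrps10, a small-subunit protein with a bacterial homologue, had 17.4, 17.7, 17.0 and 16.6 FPKM in LA livers, against 16.003, 11.3, 14.4 and 12.2 FPKM in PF livers. The LA livers were close together and all above the PF livers, which were spread more widely (log2 fold change 0.34, SE 0.10, adjusted p = 0.084). Without PF liver replicate 1 the adjusted p was 0.045. Mrps28, a low-level small-subunit gene, had 5.35 ± 1.17 FPKM in LA and 7.33 ± 0.998 FPKM in PF livers (log2 fold change -0.40, adjusted p = 0.13), and Mrps25, another small-subunit gene, 47.8 ± 2.77 and 41.5 ± 3.56 FPKM in the same order (log2 fold change 0.20, adjusted p = 0.18).

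The Mrpl genes had the narrowest range of changes among the 3 classes of gene. The 41 measured Mrpl genes had log2 fold changes between -0.20 and 0.18 in liver, 20 of them positive and 21 negative, while the 27 Mrps genes ran from -0.40 to 0.41. The summed FPKM of the Mrpl genes was 1.70 to 1.77 times that of the Mrps genes in LA livers and 1.73 to 1.84 times in PF livers, ranges that overlap. The 74 genes together held 0.365% to 0.427% of all FPKM in LA livers and 0.353% to 0.368% in PF livers, and the sum of FPKM over all genes was itself lower in LA livers (501595 to 556099) than in PF livers (559290 to 635810). When libraries were rescaled to equal sums, a setting chosen after seeing the data, the median of all genes in liver moved to 0.12 and that of the 74 genes to 0.13. Under that scaling 4 genes were higher and 1 was lower, against 5.41% and 1.19% of all genes, and the higher ones included Mrps10 (adjusted p = 0.042) and Mrps25 (adjusted p = 0.015). The list as a whole therefore stayed with the bulk of genes under either scaling.

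Partners of this machinery were mostly without calls in liver as well. Of the lists of related genes, 0 of 11 mitochondrial translation factors, 0 of 17 mitochondrial aminoacyl-tRNA synthetases, 0 of 17 ribosome assembly factors and 0 of 7 regulators of mitochondrial biogenesis passed. Over all genes tested in liver 4.48% passed. The 7 regulators tested were part of 9 listed. Ppargc1a, at 0.652 to 0.977 FPKM in LA and 0.422 to 1.05 FPKM in PF livers, missed the filter and was not tested. Of 15 genes of mitochondrial transcription and RNA handling 1 rose: Lrpprc, which binds and stabilises mitochondrial messenger RNAs, had 37.2 ± 4.05 FPKM in LA and 25.6 ± 2.67 FPKM in PF livers (log2 fold change 0.52, adjusted p = 0.014). Of 14 genes of mitochondrial DNA replication and nucleotide supply 1 fell: Tymp, the thymidine phosphorylase whose loss in humans destabilises mitochondrial DNA, had 98.8 ± 10.8 FPKM in LA and 153 ± 14.6 FPKM in PF livers (log2 fold change -0.62, adjusted p = 0.0068). The helicase of the replication fork, listed under its older symbol Peo1, had 8.89 ± 1.04 FPKM in LA and 7.54 ± 0.512 FPKM in PF livers and did not pass (adjusted p = 0.23).

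Genes that use or feed the respiratory chain are read here against 2.27% higher and 2.21% lower among all genes tested in liver. Of 43 subunits of oxidative phosphorylation 1 fell, the complex I subunit Ndufa1 (log2 fold change -0.36, adjusted p = 0.018), with a list median of -0.05. Of 14 citric acid cycle genes 2 rose. Among them Ogdh, a subunit of the lipoate-dependent 2-oxoglutarate dehydrogenase complex, had 39.5 ± 1.70 FPKM in LA and 31.8 ± 1.73 FPKM in PF livers (log2 fold change 0.30, adjusted p = 0.031). Of 13 genes of mitochondrial import 1 rose, the matrix chaperone Hspa9, with 301 ± 27.5 FPKM in LA and 214 ± 20.1 FPKM in PF livers (log2 fold change 0.49, adjusted p = 0.016). Of 31 cytosolic ribosomal protein genes 0 passed, with a median log2 fold change of 0.19. Among these 31 genes, 30 log2 fold changes were positive and 1 was negative. An unadjusted p under 0.05 in limma was reached by 13 of them, against 20.1% of all genes. Groups without overlap were found for 7 on the higher side and 0 on the lower side, against 5.89% and 6.39% of all genes.

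Cell-type markers in the same livers are read against 2.27% higher and 2.21% lower among all genes tested. The sums of hepatocyte and of macrophage markers did not overlap between the feeds. Those of endothelial markers and of fibroblast and stellate cell markers did. Of 10 hepatocyte markers tested 0 rose and 2 fell, with a median log2 fold change of -0.28, and their sum was 28033 to 34289 FPKM in LA and 37121 to 45627 FPKM in PF livers. Much of that sum was Ttr, with 14035 to 18498 FPKM in LA and 19070 to 25679 FPKM in PF livers. Of the 10 log2 fold changes 9 were negative and 1 was positive, and Hnf4a and Tat overlapped between the feeds. Of 8 macrophage markers tested 3 rose, with a median of 0.47, and their sum was 168 to 234 FPKM in LA and 129 to 149 FPKM in PF livers. Of 6 endothelial markers 2 fell, with a median of 0.06, and their sum was 25.6 to 27.6 FPKM in LA and 25.4 to 30.2 FPKM in PF livers. Of 5 fibroblast and stellate cell markers 1 fell, with a median of -0.10, and their sum was 27.6 to 34.9 FPKM in LA and 28.0 to 37.8 FPKM in PF livers. The part of these shifts in the values of Polg2 and Mrps18b was not tested.

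**Figure D2:**
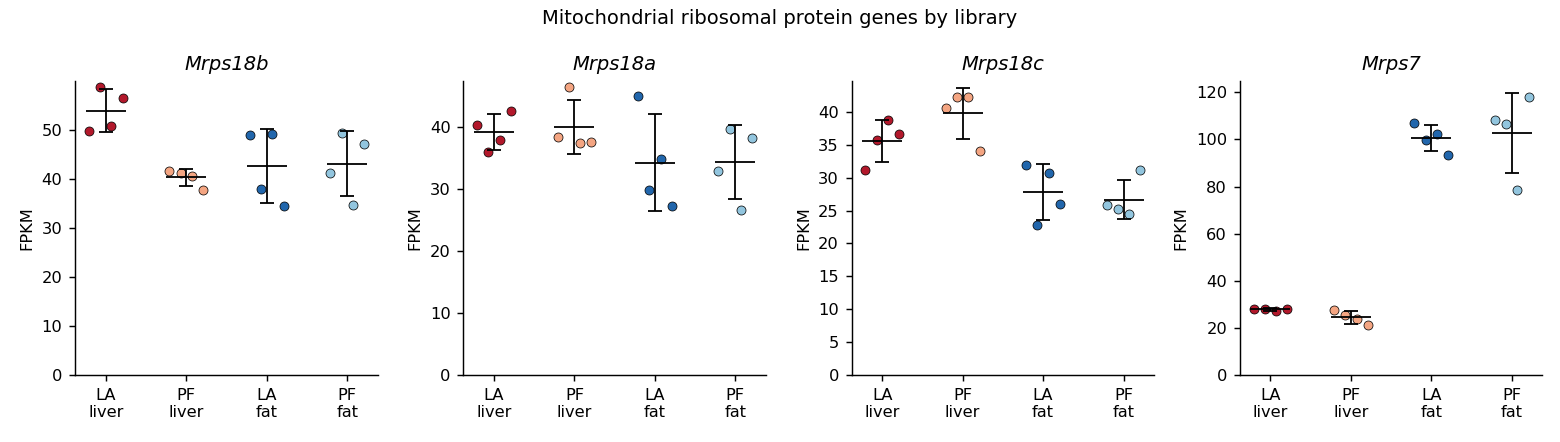
FPKM of the Mrps18 genes and of Mrps7 in each library, with points for the 4 libraries of a group and bars for the mean and SD; each axis starts at 0. Mrps18b is higher in all LA livers than in all PF livers, Mrps18a and Mrps18c overlap between the feeds, and Mrps7 is near 28 FPKM or below in liver and above 78 FPKM in fat.

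In fat, 0 of the 74 genes passed between LA and PF rats, 0 had an unadjusted p under 0.05 in limma and 0 had groups without overlap. The backgrounds were 0.0174% of 11501 genes for an adjusted p under 0.05, 3.92% for an unadjusted p under 0.05 and 2.08% for groups without overlap. The median log2 fold change was -0.06 over these genes and 0.01 over all genes tested. The smallest p was that of Mrpl37, a large-subunit protein, with 44.7, 32.5, 42.2 and 27.5 FPKM in LA fat and 47.0, 52.0, 35.1 and 61.1 FPKM in PF fat. These groups overlap, since PF fat replicate 3 lies below 2 of the LA libraries (log2 fold change -0.40, SE 0.19, unadjusted p = 0.067, adjusted p = 1.0). Mrps36, Tfb2m, Mrps10 and the stalk protein gene Mrpl12 came next, with log2 fold changes of -0.26, -0.21, -0.18 and -0.25. Mrps36 is named Kgd4 in RefSeq, since its product is a subunit of the 2-oxoglutarate dehydrogenase complex.

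Polg2 was low in fat under both feeds, with 2.05, 1.71, 1.99 and 1.56 FPKM in LA fat and 1.78, 1.96, 1.38 and 2.36 FPKM in PF fat. The groups overlap and their means differed by less than their spread (log2 fold change -0.01, SE 0.13). Polg, Tfam, Tfb1m and Polrmt likewise overlapped between the feeds in fat, with log2 fold changes of -0.01, -0.04, -0.13 and -0.01. Of the lists of related genes, 0 genes of any list passed in fat.

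The feed effect on Polg2 was called as different between the tissues, though its level in fat lay near the 1 FPKM filter, where log2(FPKM + 1) understates fold changes. Its feed effect in liver minus that in fat was -0.87 on the log2 scale (SE 0.15, limma, adjusted p = 0.014), the sole call among the 74 genes, while 0.381% of 12079 genes passed this comparison and 0.149% passed on the lower side. This call did not hold with a pseudocount of 0.1 FPKM (adjusted p = 0.063) or with the replicate number as a block (adjusted p = 0.051), and the size was -0.75 to -0.95 over all 23 alternatives. For Mrps18b the difference was 0.43 (SE 0.17, adjusted p = 0.48) and for Mrps10 0.52 (adjusted p = 0.23), so a difference between the tissues was not shown for either. Of the related genes, Lrpprc passed with a more positive feed effect in liver (adjusted p = 0.045).

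**Figure D3:**
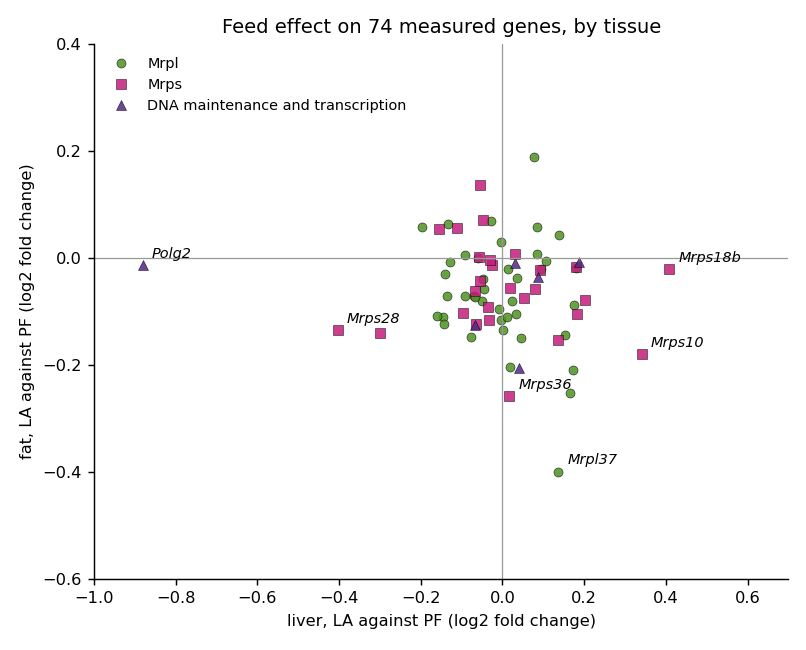
Log2 fold change between LA and PF rats of the 74 measured genes, in liver along the horizontal axis and in fat along the vertical axis, with a mark for each class of gene. Polg2 stands apart at -0.88 in liver and -0.01 in fat, and Mrps18b lies at 0.41 in liver and -0.02 in fat.

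Between the tissues, 6 of the 74 genes differed by an adjusted p under 0.05 and over 2-fold under LA, and 5 under PF, where 46.4% of all genes tested did under LA (10.5% higher and 36.0% lower) and 47.4% under PF (11.1% higher and 36.3% lower). Higher in liver were both polymerase gamma subunits, Polg2 and Polg, under either feed, and Mrps34 under LA. Lower in liver were Mrps7, Mrps36 and Mrpl48 under either feed. All 5 genes called under PF were also called under LA. With an adjusted p under 0.05 alone, 22 genes were higher and 21 lower in liver under LA and 20 and 27 under PF, where 84.6% of all genes passed under each feed (17.9% higher and 66.8% lower under LA, 18.4% and 66.2% under PF).

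Polg2 was the gene with the largest difference upward. Its liver and fat values, given above, lay more than 6 FPKM apart in each feed, and the log2 fold change of liver against fat was 1.93 under LA (SE 0.096, adjusted p = 1.6e-08) and 2.79 under PF (SE 0.12, adjusted p = 1.4e-09). Polg had 16.8, 18.0, 14.0 and 15.9 FPKM in LA liver and 5.86, 7.83, 5.81 and 7.76 FPKM in LA fat, and 16.8, 16.9, 13.6 and 15.9 FPKM in PF liver and 8.17, 6.24, 7.06 and 5.93 FPKM in PF fat. Every liver library was above every fat library, with log2 fold changes of 1.14 under LA (SE 0.12) and 1.10 under PF (SE 0.11). Polg overlaps Fanci in the RefSeq annotation, a gene without listed values under that symbol. Reads of overlapping genes cannot be told apart in these unstranded libraries, which limits the Polg values and the ratios to them. The Polg2 to Polg ratio was 0.201 to 0.351 in LA fat and 0.196 to 0.399 in PF fat, below every liver library of either feed. In fat the order of levels was Tfam, Tfb2m, then Polg and Tfb1m within their spread of each other, then Polrmt and last Polg2.

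Of the transcription genes, none differed over 2-fold between the tissues in FPKM as deposited. Polrmt had 4.96 ± 0.494 FPKM in LA liver and 3.00 ± 0.0554 FPKM in LA fat (log2 fold change 0.57), and 4.23 ± 0.386 FPKM in PF liver and 3.03 ± 0.115 FPKM in PF fat (0.38). Tfam differed by 0.24 under LA and 0.12 under PF, and Tfb2m by 0.25 and 0.01. Tfb1m was the gene of the 6 with lower levels in liver, by -0.30 under LA and -0.36 under PF, both under 2-fold. With libraries centred on their medians Polrmt passed as higher in liver, at 1.24 under LA and 1.05 under PF, and Tfb1m turned to higher values in liver, at 0.37 and 0.32, both under 2-fold.

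Mrps7, a small-subunit protein with a bacterial homologue, was the ribosomal gene with the largest difference between the tissues. It had 28.3, 28.0, 27.2 and 28.2 FPKM in LA liver and 106.8, 99.8, 102.1 and 93.4 FPKM in LA fat, and 27.6, 25.8, 24.0 and 21.3 FPKM in PF liver and 108.2, 106.4, 78.5 and 118.0 FPKM in PF fat. The groups lay far apart, with log2 fold changes of -1.81 under LA (SE 0.073, adjusted p = 3.0e-09) and -2.01 under PF (SE 0.13, adjusted p = 6.9e-08).

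Mrps36 had 24.5 ± 3.70 FPKM in LA liver and 56.0 ± 8.005 FPKM in LA fat (log2 fold change -1.16), and 24.1 ± 2.49 FPKM in PF liver and 67.5 ± 11.5 FPKM in PF fat (-1.44). The citric acid cycle, in which its product acts, had 5 of 14 genes lower and 1 higher in liver under each feed, shares near those of all genes given above, and among the lower ones was Ogdh (-1.65 under LA and -2.11 under PF). Mrpl48, a large-subunit gene, had 10.1 ± 1.98 FPKM in LA liver and 23.9 ± 3.38 FPKM in LA fat (-1.18), and 10.7 ± 1.13 FPKM in PF liver and 25.1 ± 2.83 FPKM in PF fat (-1.16). It overlaps Rab6a in the RefSeq annotation, which was lower in liver too (-1.08 and -1.30), and reads of overlapping genes cannot be told apart in these unstranded libraries. Mrps34, of the small subunit, had 44.8, 49.2, 47.2 and 53.5 FPKM in LA liver and 28.9, 19.9, 21.8 and 18.8 FPKM in LA fat (log2 fold change 1.11). It was 0.82 under PF, and 0.93 under LA without 3 fat libraries described below, so in FPKM as deposited it lay near the 2-fold threshold. With median centring it was 1.78 under LA and 1.49 under PF.

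The direction of the 74 genes as a group between the tissues depended on the scaling. In FPKM as deposited the median log2 fold change of liver against fat over the 74 genes was -0.02 under LA and -0.08 under PF, while that of all genes tested was -0.65 under LA and -0.66 under PF. Relative to the median of all genes that of the 74 genes was therefore higher in liver: with each library centred on its median, their median was 0.65 under LA and 0.59 under PF, and with centring on genes expressed in all libraries, chosen after seeing the data, 0.60 and 0.49. With median centring 18 were higher and 1 lower under LA and 16 higher and 1 lower under PF, against 17.2% and 19.8% of all genes under LA and 18.0% and 19.6% under PF. Of the genes called with median centring, 15 were shared between the feeds, among them Polg, Polg2, Polrmt, Mrps34 and Mrps7. Mrps7 was the gene that stayed lower over 2-fold in both, while Mrps36 (-0.49 under LA and -0.76 under PF) and Mrpl48 (-0.51 and -0.49) stayed lower but under 2-fold. Cytosolic ribosomal protein genes had medians of -0.79 under LA and -0.88 under PF as deposited, below those of the mitochondrial ones, and oxidative phosphorylation subunits medians of -0.20 and -0.25.

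**Figure D4:**
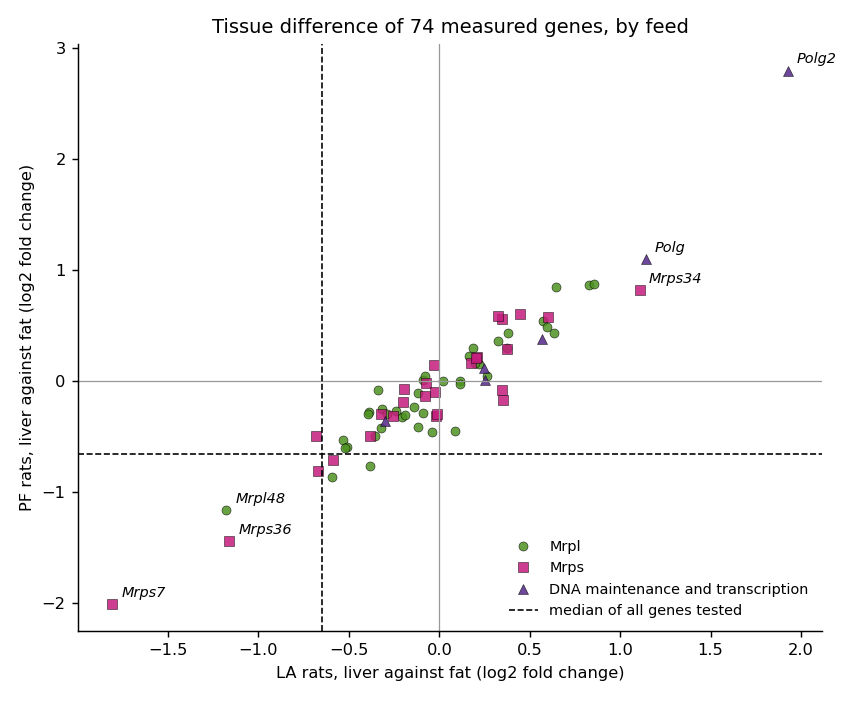
Log2 fold change of liver against fat for the 74 measured genes, under LA along the horizontal axis and under PF along the vertical axis; dashed lines mark the median of all genes tested. Most genes lie near 0 and above both dashed lines at -0.65 and -0.66, with Polg2 far above and Mrps7 far below.

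Fat libraries of a group differed from each other in the level of the whole set, and liver libraries hardly did. The median FPKM over the 74 genes was 28.4, 22.0, 27.9 and 22.2 in LA fat and 25.5, 27.9, 21.6 and 29.1 in PF fat, against 25.9 to 27.9 in LA liver and 25.9 to 27.3 in PF liver. LA fat replicates 2 and 4 and PF fat replicate 3 were the low ones. In these 3 libraries lay the 3 lowest fat values of 46 of the 74 genes, or 62.2%, and of 13.0% of all 11501 genes tested in fat. The 3 libraries were picked by the median of the same 74 genes, so the larger share among these genes follows in part from that choice. Oxidative phosphorylation subunits were low there as well, with medians of 147 to 152 FPKM against 188 to 208 FPKM in the other 5 fat libraries, and so was the sum of FPKM over all genes, at 503569 to 527553 against 539921 to 602670. Polg did not follow them: its LA fat values were higher in replicates 2 and 4 (7.83 and 7.76 FPKM) than in replicates 1 and 3 (5.86 and 5.81 FPKM). Without these 3 libraries 0 of the 74 genes passed between the feeds in fat, and their median log2 fold change was 0.02. The relative value of 1 fragment was 0.740 and 0.755 in LA fat replicates 2 and 4 and 0.787 in PF fat replicate 3. It was 0.774 in PF fat replicate 2 and 0.841 to 0.959 in the remaining fat libraries. The part of depth, scaling, tissue makeup or RNA quality in this split was not tested.

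**Figure D5:**
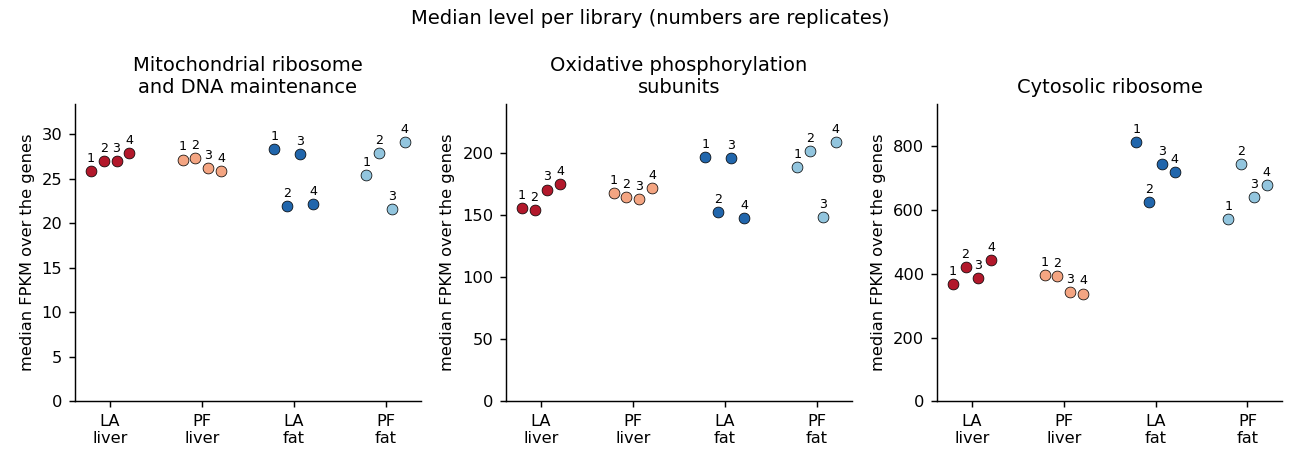
Median FPKM per library over the 74 measured genes of the mitochondrial ribosome and DNA maintenance, over 43 oxidative phosphorylation subunits and over cytosolic ribosomal protein genes; points are libraries with their replicate number, and each axis starts at 0. LA fat replicates 2 and 4 and PF fat replicate 3 lie lowest in fat in the left and middle panels, and liver libraries lie close together.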

How the data were processed

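RNA of 16 libraries was prepared with the TruSeq V2 kit, per the labels' protocols, so strand was not kept. The deposited values are FPKM per gene symbol, made by the authors with CASAVA 1.8.2, TopHat and Cuffdiff, per the submitters' processing notes. For genome build, annotation and options, values were not given in the sources used here. FPKM are shares, so abundant genes move the others.

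The fits used limma 3.58.1 (R 4.3.3, mean-variance trend, Benjamini-Hochberg adjustment) on log2(FPKM + 1). A gene entered a fit when 4 or more of its libraries reached 1 FPKM. The threshold was an adjusted p of 0.05, with a log2 fold change over 1 in size added for comparisons of the tissues. Liver and fat came from the same 8 rats, yet every library counted as independent, since its rat is not known. Low genes have understated fold changes. The procedure was also run on simulated data with independent noise in every library. Those data held no library-wide shifts and no shared rats, so the run cannot show how the fits behave under either. No 2 libraries were identical.

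The gene set and all lists were chosen with earlier results of these data known. Named were the 6 DNA and transcription genes, called genes (up to 12, or the 5 with the smallest p), the 5 highest and lowest, genes at 0, and up to 3 called genes per related list; part of these are printed, and some genes are not reported here. Mrps18a, Mrps18c, Peo1 and Rab6a were chosen after their values were seen. Lower-case symbols (mrpl11, mrpl24, mrpl9) and Mrp63 are listed too, but the rule does not take them. In the 12 lists of related genes, without the marker lists, 165 entries were found under their symbol, 29 under an older symbol and 33 not. A gene shared by lists counts in each. The 33 include all 20 symbols tried for mitochondrially encoded genes, so the RNA of those genes could not be examined.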

Additional observations from a re-analysis of the deposited data

Results flagged for a closer look

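The feed effect on Polg2 was called as different between the tissues, at -0.87 on the log2 scale (liver minus fat, limma, adjusted p = 0.014): all 4 LA livers lay below all 4 PF livers, and in fat, where Polg2 was low, the feeds overlapped. This call was lost with the replicate block (adjusted p = 0.051) and with a pseudocount of 0.1 (adjusted p = 0.063). In 3 of 88 groups of 4 libraries looked at, a library stood apart by Dixon's criterion for an outlying value, where chance gives about 1 in 20 groups. Mrpl12 in PF fat was 34.2 FPKM in replicate 3, against 51.7 to 53.4 FPKM in the other PF fat libraries. Mrps16 in PF liver was 59.1 FPKM in replicate 3, against 75.2 to 76.8 FPKM in the others. Mrpl47 in LA liver was 4.71 FPKM in replicate 1, against 6.50 to 6.82 FPKM in the others.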

How the results depend on the processing

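The settings varied were the pseudocount (0.1), the filter (none), centring on the median, the replicate number as a block, 1 model over all 16 libraries, the thresholds and leaving out each replicate; rescaling to equal sums, centring on genes expressed in all libraries and leaving out 3 fat libraries were chosen after seeing the data. Of 844 values for named genes, 826 stayed on the same side of the threshold, 12 lost the call, 6 gained it and no called value changed sign; uncalled values could change sign, as Tfb1m did between the tissues with centring. In liver the 2 called genes became 1 with all 16 libraries in 1 model, 5 after rescaling to equal sums and 0 with a 2-fold threshold, and 2 to 3 with a replicate left out; the median of the set moved to 0.13 after rescaling, and was -0.04 to 0.03 with a replicate left out. In fat 0 were called under every alternative, and the median was -0.13 to -0.003 with a replicate left out and 0.02 without the 3 fat libraries, where the median for the difference of feed effects was -0.03. For the difference of feed effects the 1 call became 0 with a pseudocount of 0.1, with the replicate block and with a 2-fold threshold; the median moved to 0.21 after rescaling and was 0.006 to 0.13 with a replicate left out. Same-numbered libraries were compared as deviations from their group means over genes. For liver and fat they correlated at -0.14, 0.11, 0.09 and -0.22 under LA and at 0.07, 0.29, 0.12 and -0.03 under PF. These values cannot settle whether the replicate numbers pair the samples, since library-wide shifts enter them. With the replicate block Polg2 had an adjusted p of 0.051 in limma for the difference of feed effects. The block changed no other call among the named genes. For liver against fat under LA, 6 calls became 19 with median centring, 15 with centring on genes expressed in all libraries and 43 with the adjusted p alone; under PF, 5 became 17, 15 and 47. With a replicate left out the calls stayed at 6 and 5. The median under LA moved to 0.65, to 0.60 and, without the 3 fat libraries, to -0.18, and under PF to 0.59 and 0.49 with the same centrings; with a replicate left out it was -0.09 to 0.05 under LA and -0.15 to -0.002 under PF. For changes with scaling, the centring itself shifts every gene; other causes were not tested. With 4 libraries a group and read totals unknown, smaller changes may have been missed.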
